A study of Mus musculus with 10 samples.

Results

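The semaphorins, plexins and neuropilins are a family of guidance ligands and their receptors, described here in mouse granulosa cells that lacked the progesterone receptor (PRKO). Members were all genes on the array whose symbol named a semaphorin of class 3 to 7, a plexin or a neuropilin. This gave 31 of the 19938 genes tested, of which 20 were semaphorins, 9 plexins and 2 neuropilins.

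Semaphorins are secreted or cell-surface proteins that share a sema domain, and plexins are their main receptors. The cytoplasmic part of a plexin inactivates small GTPases of the Ras and Rap group and so loosens integrin adhesion and the actin skeleton. Neuropilins have no signalling domain of their own and hold secreted class 3 semaphorins for the A-type plexins, and they also bind vascular endothelial growth factors. The family is best known from growth cones and blood vessels. In the ovulating follicle the granulosa layer loosens while vessels grow towards it.

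In PRKO mice both alleles of Pgr, the progesterone receptor gene, held an inserted lacZ reporter, which disrupts both receptor isoforms and is carried by every tissue. The PR+/- controls held the same insertion in 1 allele and no wild-type mice were compared. All animals were 21 to 23 days old, received equine chorionic gonadotropin (5 IU) and, 44 to 47 h later, human chorionic gonadotropin (hCG, 5 IU), and were sampled 8 h after hCG. Each array held granulosa cells of 3 animals pooled from punctured antral follicles, with 5 PRKO pools and 5 PR+/- pools.

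Values are log2 expression values as deposited, and a difference is PRKO minus PR+/- on that scale. The 10 arrays had medians of 6.48 to 6.55 and pairwise correlations of 0.973 to 0.992, and their number limits the precision. Pgr itself did not separate the genotypes, at 6.45 ± 0.32 in PRKO pools and 6.91 ± 0.70 in PR+/- pools (SD, n = 5 pools each, limma adjusted p = 0.527), and since no source used here places its probes relative to lacZ, it checks no label. Background was set at 5.87, the 95th percentile of 1015 olfactory receptor genes. All 10 measured granulosa cell markers lay above it in both genotypes, and so did 8 of 8 oocyte markers and 7 of 8 endothelial markers, while 6 of 10 leukocyte markers lay below it in both. No gene of these lists, nor of the theca and stroma, mural cell and surface epithelium lists, passed the test between genotypes.

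PRKO granulosa cells had more transcript of 2 semaphorins, Sema7a and Sema4c, and of 1 plexin, Plxna3, and no member passed as lower. These 3 of 31 members passed at a limma adjusted p under 0.05 over all genes, a rule that called 0.752% of all genes as higher and 1.71% as lower. The median difference was 0.15 over the 31 members, 0.15 over the semaphorins and 0.09 over the plexins and neuropilins, beside -0.02 over all genes tested. Of the members, 24 had a positive difference and 7 a negative one, against 44.8% positive over all genes. Over all genes 6539 lay below background in both genotypes, against 2 of the members, so the all-gene values cover a dimmer set. At an unadjusted p under 0.05, met by 13.0% of all genes (6.43% higher and 6.57% lower), 11 members were higher in PRKO and 2 lower. In 4 members, the 3 that passed and Plxnb1, the pools of the genotypes did not overlap, against 4.42% of all genes, and all 4 were higher in PRKO. An adjusted p under 0.01 kept 2 members and 1.29% of all genes, and a fold of at least 1.5 kept 1 member and 1.10% of all genes.

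**Figure D1:**
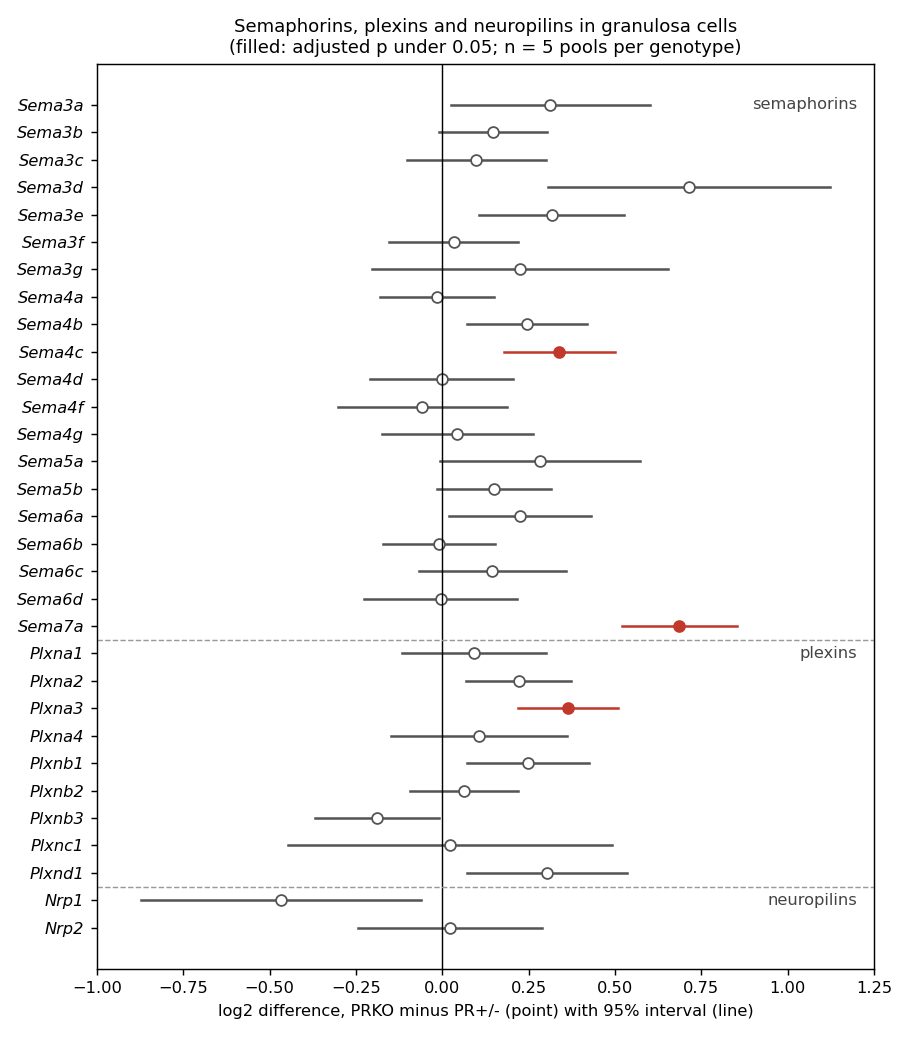
Log2 difference, PRKO minus PR+/- (horizontal axis), of each of the 31 members (vertical axis, by role), with points for the estimate, lines for its 95% interval from limma and filled red points for adjusted p under 0.05 (n = 5 pools per genotype). Sema7a, Sema4c and Plxna3 are filled and lie right of 0, Sema3d lies farthest right at 0.71 with a wide line, and Nrp1 lies farthest left at -0.47.

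Sema7a, the membrane-anchored semaphorin that signals through integrins containing Itgb1 and through Plxnc1, had the clearest difference in the family. Its log2 values were 10.05, 10.28, 10.06, 10.16 and 10.21 in PRKO pools 1 to 5, against 9.62, 9.32, 9.56, 9.40 and 9.43 in PR+/- pools 1 to 5. Every PRKO pool lay above every PR+/- pool, and the spread within a genotype was small. The mean was 10.15 ± 0.10 in PRKO pools and 9.47 ± 0.12 in PR+/- pools (SD, n = 5 pools each). Sema7a thus rose by 0.69 on the log2 scale (95% interval 0.52 to 0.85), or 1.61-fold (limma adjusted p = 0.000103), and ranked 87 by p among all genes tested. It passed without any 1 pool, with adjusted p up to 0.000626.

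Sema4c, a transmembrane ligand of Plxnb2, rose less. It read 9.64, 9.73, 9.71, 9.53 and 9.71 in PRKO pools 1 to 5, against 9.31, 9.19, 9.25, 9.49 and 9.39 in PR+/- pools 1 to 5. The groups did not overlap, but the lowest PRKO pool (4) and the highest PR+/- pool (also 4) lay close together. The difference was 0.34 (SE 0.07, 95% interval 0.18 to 0.50), or 1.26-fold, with a limma adjusted p of 0.0258. The call was lost without PRKO pool 1, 2, 3 or 5 or PR+/- pool 1, 2 or 3 (adjusted p up to 0.0699), while the difference stayed between 0.30 and 0.38.

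Plxna3, an A-type plexin that transmits class 3 semaphorin signals held by neuropilins, was the receptor that rose. PRKO pools 1 to 5 read 8.05, 8.17, 7.96, 8.08 and 8.12, against 7.62, 7.83, 7.70, 7.71 and 7.69 in PR+/- pools 1 to 5. Both groups were narrow and all 5 PRKO pools were higher. The difference was 0.36 (SE 0.07, 95% interval 0.22 to 0.51), or 1.29-fold, with a limma adjusted p of 0.00801, and at most 0.0279 with any 1 pool left out.

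**Figure D2:**
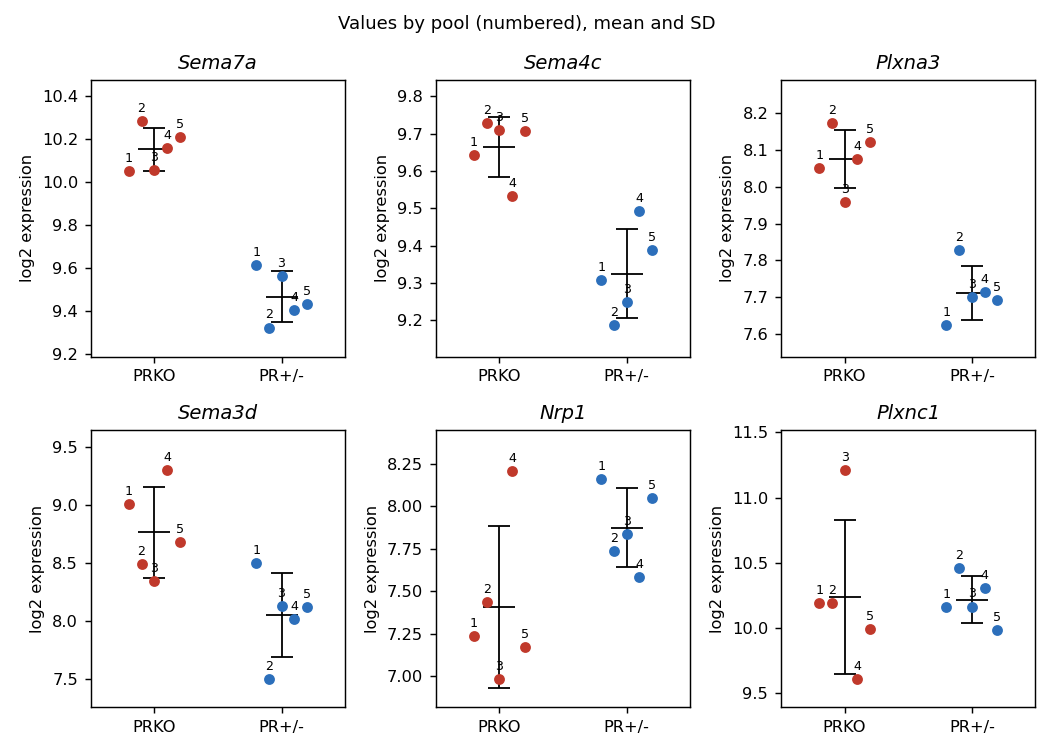
Log2 expression (vertical axes, each with its own range) of 6 members in the 5 PRKO pools (red, left) and the 5 PR+/- pools (blue, right), numbered by pool, with the mean as a bar and the SD as whiskers. PRKO and PR+/- pools are apart in Sema7a, Sema4c and Plxna3, while in Nrp1 PRKO pool 4 (8.21) lies above all PR+/- pools and in Plxnc1 PRKO pool 3 (11.21) lies above the rest.

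The promoters of these 3 genes are shown because the progesterone receptor, a DNA-binding protein, was what the genotypes differed in. Each is the 250 bases before the annotated start on the gene's own strand, from RefSeq on GRCm38.p6, at chr9:57939862-57940111 on the plus strand for Sema7a, chr1:36558382-36558631 on the minus strand for Sema4c (the outermost of 2 starts in the table) and chrX:74328816-74329065 on the plus strand for Plxna3. Capitals mark the hexamer TGTTCT, an arm of the inverted repeat bound by the progesterone and glucocorticoid receptors, and the GC box GGGCGG, each searched on both strands.
Sema7a: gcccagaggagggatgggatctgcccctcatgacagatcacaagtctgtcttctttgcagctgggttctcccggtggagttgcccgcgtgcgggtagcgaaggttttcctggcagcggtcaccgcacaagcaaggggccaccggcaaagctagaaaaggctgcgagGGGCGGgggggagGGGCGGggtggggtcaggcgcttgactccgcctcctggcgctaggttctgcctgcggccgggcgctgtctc
Sema4c: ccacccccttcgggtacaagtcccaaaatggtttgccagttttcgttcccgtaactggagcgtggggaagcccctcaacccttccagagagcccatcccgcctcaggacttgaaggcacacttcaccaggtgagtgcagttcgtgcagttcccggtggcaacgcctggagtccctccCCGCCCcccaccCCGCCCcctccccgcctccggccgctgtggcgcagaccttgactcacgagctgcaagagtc
Plxna3: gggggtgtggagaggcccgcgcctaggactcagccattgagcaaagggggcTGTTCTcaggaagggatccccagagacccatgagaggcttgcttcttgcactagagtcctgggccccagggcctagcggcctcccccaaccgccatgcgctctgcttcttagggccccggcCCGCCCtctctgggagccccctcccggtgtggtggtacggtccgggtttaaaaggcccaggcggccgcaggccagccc
Sema7a and Sema4c held 2 GC boxes each and no TGTTCT, and Plxna3 held 1 of each, its hexamer beginning 199 bases before the start. The table held an entry for 26 of the 31 members, with 37 starts. The hexamer lay before 7 of the 37 member starts, and in 16.1% of all 32851 promoter windows of that length. Those starts belonged to 5 members (Plxna3, Plxnd1, Sema4d, Sema6b and Sema6d). The full inverted repeat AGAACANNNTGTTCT, which contains the hexamer, was in none of the members' windows and in 3 windows of the table. Its core ACANNNTGT was in 2 of the 37 member windows, those of Sema3d and Sema4d, and in 5.84% of all windows. GC boxes lay before 27 of the 37 member starts and in 32.7% of all windows. These windows end at the start and hold no distal sequence.

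Secreted class 3 semaphorins, which other than Sema3e signal through neuropilins, all had positive differences, 7 of 7 from 0.03 to 0.71 with a median of 0.23, but none passed. Sema3d had the largest difference of the whole family. It read 9.01, 8.49, 8.34, 9.30 and 8.68 in PRKO pools 1 to 5, against 8.50, 7.50, 8.13, 8.02 and 8.12 in PR+/- pools 1 to 5. The groups overlapped through PR+/- pool 1 and PRKO pools 2 and 3, and the spread was wide on both sides. Its difference was 0.71 (SE 0.19, 95% interval 0.31 to 1.12), or 1.64-fold, with a limma adjusted p of 0.0714. Sema3d passed in limma without PRKO pool 3 (adjusted p = 0.0369) or PR+/- pool 1 (0.0416), and with array weights (0.0249).

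Sema3e, which binds Plxnd1 without a neuropilin, read 7.63, 7.63, 7.35, 7.65 and 7.52 in PRKO pools 1 to 5, against 7.45, 7.22, 7.30, 6.92 and 7.31 in PR+/- pools 1 to 5 (difference 0.32, limma adjusted p = 0.139). Only PRKO pool 3 lay inside the PR+/- range. Sema3a, the founding repellent of the class, read 8.66, 8.70, 8.35, 8.95 and 8.94 in PRKO pools 1 to 5, against 8.54, 8.23, 8.04, 8.67 and 8.54 in PR+/- pools 1 to 5 (difference 0.31, limma adjusted p = 0.336). PRKO pools 1 and 3 lay inside the PR+/- range. The other members of the class, Sema3b, Sema3c, Sema3f and Sema3g, had differences of 0.15, 0.10, 0.03 and 0.23. Sema3a, Sema3c, Sema3d and Sema3e all lie on chromosome 5.

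Sema4b is, like Sema4c, a transmembrane ligand of class 4. It read 9.74, 10.02, 9.62, 9.78 and 9.95 in PRKO pools 1 to 5, against 9.61, 9.53, 9.57, 9.52 and 9.65 in PR+/- pools 1 to 5, and only PRKO pool 3 fell inside the PR+/- range (difference 0.25, limma adjusted p = 0.175). Of the other class 4 members, the Plxnb1 ligand Sema4d had a difference of 0.00, with a 95% interval of -0.21 to 0.21, Sema4a -0.01, Sema4f -0.06 and Sema4g 0.04. Sema4g was below background in both genotypes. A second, dimmer probe set of Sema4d gave -0.01.

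Sema6a, a transmembrane ligand of Plxna2 and Plxna4, read 6.98, 6.70, 6.59, 6.89 and 6.49 in PRKO pools 1 to 5, against 6.39, 6.62, 6.56, 6.41 and 6.55 in PR+/- pools 1 to 5 (difference 0.22, limma adjusted p = 0.331). PRKO pools 1, 2 and 4 lay above the PR+/- range. Sema6b, Sema6c and Sema6d had differences of -0.01, 0.15 and 0.00, none past the threshold. The 2 probe sets that name Sema6b held identical values in every pool and were counted once.

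The class 5 semaphorins, which carry thrombospondin repeats, were Sema5a and Sema5b. Sema5a read 10.81, 11.14, 11.14, 10.61 and 10.67 in PRKO pools 1 to 5, against 10.46, 11.04, 10.47, 10.46 and 10.53 in PR+/- pools 1 to 5. PR+/- pool 2 stood with PRKO pools 2 and 3, while the other PR+/- pools lay below every PRKO pool. The difference was 0.28 (limma adjusted p = 0.398). Sema5b read 6.44, 6.39, 6.58, 6.59 and 6.57 in PRKO pools 1 to 5, against 6.21, 6.25, 6.47, 6.43 and 6.47 in PR+/- pools 1 to 5 (difference 0.15, limma adjusted p = 0.438), and PRKO pools 1 and 2 overlapped the PR+/- pools. Sema5a and Sema3g were both high in PRKO pools 2 and 3 and PR+/- pool 2, where Sema3g read 8.94, 8.93 and 8.67 against at most 8.36 in the other pools. In the same pools the mean of the granulosa markers was highest, at 11.10 and 11.23 in PRKO pools 2 and 3 and 10.86 in PR+/- pool 2. That mean ranged from 10.37 to 11.23 over PRKO pools and from 10.48 to 10.86 over PR+/- pools, with 9 of 10 markers higher in PRKO and none past the threshold. At an unadjusted p under 0.05 in limma, met by 13.0% of all genes, 5 markers were higher and 1 lower. The median difference of the markers was 0.27, beside 0.15 over the members. With the marker mean as a covariate, a setting added after the values were seen, Sema5a had a difference of 0.11 and Sema3g of -0.07. The part of the granulosa markers in the Sema5a and Sema3g values was not tested beyond this covariate.

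Of the plexins, 8 of 9 had positive differences. Plxna2, like Plxna3 an A-type plexin, read 8.24, 8.20, 8.29, 8.26 and 8.17 in PRKO pools 1 to 5, against 8.00, 8.21, 8.00, 7.92 and 7.93 in PR+/- pools 1 to 5. Apart from PR+/- pool 2 the groups were separate (difference 0.22, limma adjusted p = 0.155). Plxna1 and Plxna4 had differences of 0.09 and 0.11.

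Plxnb1, the receptor of Sema4d, read 9.64, 9.45, 9.61, 9.48 and 9.52 in PRKO pools 1 to 5, against 9.39, 9.07, 9.36, 9.44 and 9.19 in PR+/- pools 1 to 5. The groups did not overlap, narrowly so between PRKO pool 2 and PR+/- pool 4, and the difference of 0.25 did not pass (limma adjusted p = 0.176). Plxnd1, a receptor prominent in endothelium, read 7.98, 7.94, 7.83, 8.15 and 8.19 in PRKO pools 1 to 5, against 7.75, 7.38, 7.81, 7.65 and 7.99 in PR+/- pools 1 to 5 (difference 0.30, limma adjusted p = 0.225). PR+/- pool 5 overlapped the PRKO pools. Plxnb3, dim in both genotypes and the 1 plexin with a negative difference, read 5.36, 5.66, 5.70, 5.72 and 5.41 in PRKO pools 1 to 5, against 5.76, 5.71, 5.88, 5.74 and 5.72 in PR+/- pools 1 to 5 (difference -0.19, limma adjusted p = 0.354).

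Neither neuropilin passed with all pools, and their differences had opposite signs. Nrp1, the co-receptor of Sema3a and of vascular endothelial growth factor, read 7.24, 7.44, 6.99, 8.21 and 7.17 in PRKO pools 1 to 5, against 8.16, 7.74, 7.84, 7.59 and 8.05 in PR+/- pools 1 to 5. Apart from PRKO pool 4, the highest of all 10, every PRKO pool lay below every PR+/- pool. With all pools the difference was -0.47 (SE 0.19, 95% interval -0.87 to -0.06, limma adjusted p = 0.299), and without PRKO pool 4 it was -0.67 and passed (adjusted p = 0.0110). Nrp2, which binds Sema3f, read 6.46, 6.61, 6.35, 6.88 and 6.12 in PRKO pools 1 to 5, against 6.43, 6.46, 6.69, 6.25 and 6.46 in PR+/- pools 1 to 5, a difference of 0.02 (95% interval -0.24 to 0.29). PRKO pool 4 was the highest here too.

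Endothelial cells carry Nrp1, and the mean of their markers was high in the pools where Nrp1 was high. The mean of 8 endothelial markers was 6.66, 6.61, 6.50, 7.10 and 6.50 in PRKO pools 1 to 5, against 6.91, 6.52, 6.78, 6.52 and 6.89 in PR+/- pools 1 to 5. It was highest in PRKO pool 4 and next in PR+/- pools 1 and 5, the same 3 pools as for Nrp1. Of the 8 markers, 7 had negative differences, as Nrp1 did, and Kdr had a positive one of 0.41 and was highest in PRKO pool 5 (8.51), where Nrp1 was low. Other cell types' markers moved with PRKO pool 4 as well. The means of the mural cell (7.41) and surface epithelium (8.01) markers were the highest of all 10 pools there, that of the theca and stroma markers (8.54) was second to PRKO pool 2, and that of the granulosa markers (10.37) was the lowest. The mural marker Pdgfrb was highest in the same 3 pools as Nrp1, at 8.40 in PRKO pool 4 and 8.23 and 8.13 in PR+/- pools 1 and 5. The mural mean was instead next highest in PRKO pool 2 (7.20). The part of these cell types in the Nrp1 values was not tested. In pooled cells, fewer cells of a type and less RNA per cell cannot be told apart. With the endothelial marker mean as a covariate, a setting added after the values were seen, Nrp1 had a difference of -0.39 and passed (limma adjusted p = 0.0364). Sema3d had 0.78 and passed (0.00218). With the granulosa marker mean as the covariate, Nrp1 had -0.23 (0.538), Sema3d 0.98 (0.000305) and Plxnd1 0.42 (0.0328), while Sema4c did not pass (0.31, 0.0778). Sema7a and Plxna3 passed with either covariate, with adjusted p up to 0.0237.

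**Figure D3:**
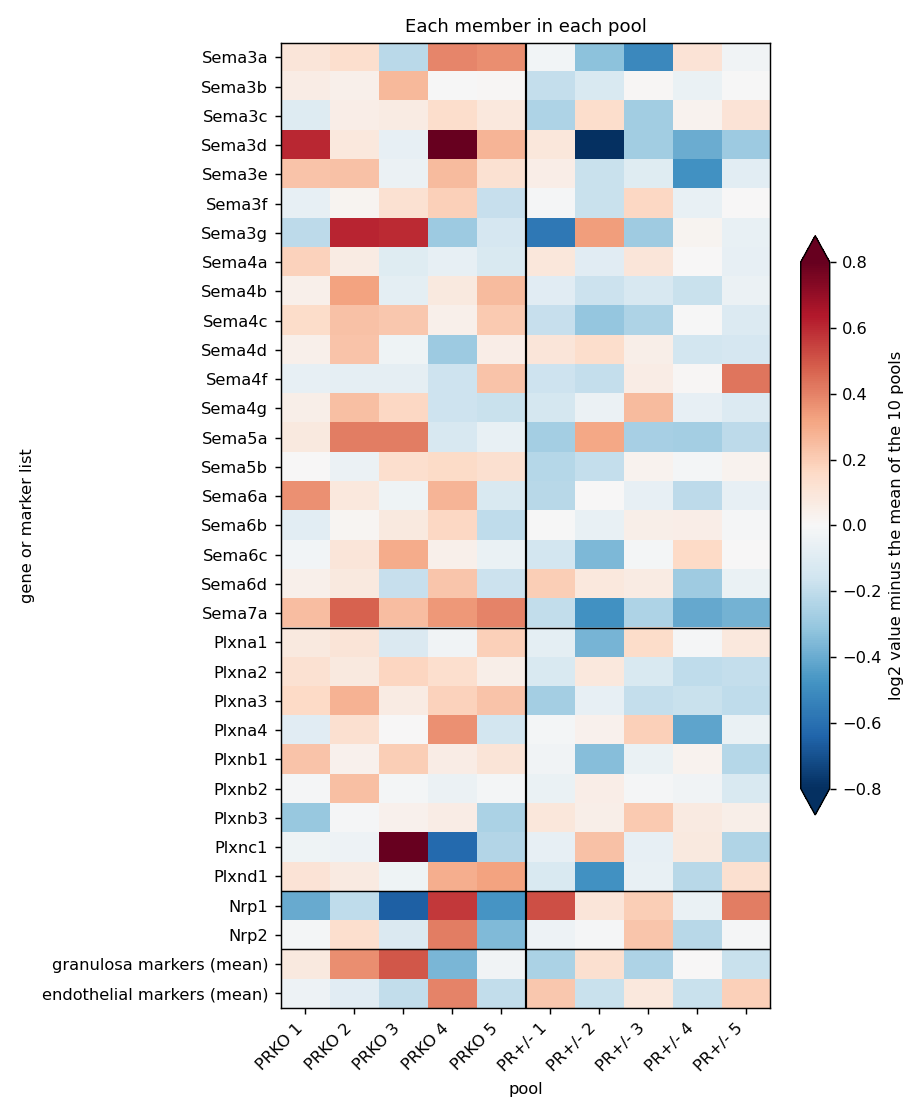
Log2 value minus the mean of the 10 pools (colour, red above and blue below, cut at 0.8 either way) for each member (rows, by role) and for the granulosa and endothelial marker means (lowest rows) in the 5 PRKO pools (left of the line) and 5 PR+/- pools (right of it). Sema7a and Plxna3 change colour at the line, whereas Nrp1 is deepest red in PRKO pool 4 and PR+/- pools 1 and 5, where the endothelial mean is also highest.

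Known ligand and receptor pairs were then set side by side, 33 pairs within the family over 18 ligands. The 2 partners had positive differences in 20 pairs, opposite signs in 12 and negative differences in 1, and in no pair did both pass the test. Plxnc1, a receptor of Sema7a, read 10.19, 10.19, 11.21, 9.61 and 9.99 in PRKO pools 1 to 5, against 10.16, 10.46, 10.16, 10.31 and 9.98 in PR+/- pools 1 to 5. PRKO pools 3 and 4 were the highest and lowest of all, and the SD of 0.59 in PRKO pools against 0.18 in PR+/- pools left the difference loosely bounded (0.02, 95% interval -0.45 to 0.49). PRKO pools 3 and 4 were also those with the highest and lowest granulosa marker mean, 11.23 and 10.37, and the part of this in Plxnc1 was not tested beyond the covariate, which gave -0.29 (adjusted p = 0.406). Itgb1, the integrin subunit through which Sema7a acts, read 11.17, 11.12, 11.04, 11.27 and 11.13 in PRKO pools 1 to 5, against 11.23, 11.19, 11.11, 11.17 and 11.17 in PR+/- pools 1 to 5. The PR+/- pools lay within the PRKO range, with means of 11.15 ± 0.09 in PRKO pools and 11.17 ± 0.04 in PR+/- pools (SD, n = 5 pools each), with a difference of -0.03 (95% interval -0.17 to 0.11).

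Plxnb2, the receptor of Sema4c, read 9.97, 10.22, 9.97, 9.93 and 9.97 in PRKO pools 1 to 5, against 9.93, 10.04, 9.97, 9.95 and 9.86 in PR+/- pools 1 to 5. Its difference was 0.06 (95% interval -0.09 to 0.22), and the groups overlapped almost fully apart from PRKO pool 2. Whether a ligand moved by a different amount from its receptor was tested for 34 pairs (those above and Sema7a with Itgb1) by an exact two-sided permutation test of the ligand value minus the receptor value in each pool. None passed after Benjamini-Hochberg adjustment over the 34 pairs, 7 had an unadjusted p under 0.05, and the smallest p the 10 pools allow is 0.00794. At that smallest p a pair passes the adjustment only where several pairs reach it or lie near it together. That none passed thus does not show that ligands and receptors moved alike. The difference between genotypes was larger by 0.71 log2 units for Sema7a than for Itgb1 (SE 0.08, exact permutation p = 0.00794, adjusted p = 0.135) and by 0.66 for Sema7a than for Plxnc1 (SE 0.31, exact permutation p = 0.0714, adjusted p = 0.221). For Sema4c against Plxnb2 the value was 0.28 (SE 0.09, exact permutation p = 0.0238, adjusted p = 0.135). For Sema3d against Nrp1 it was 1.18 (SE 0.18, exact permutation p = 0.00794, adjusted p = 0.135), with no overlap between the groups.

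Inside the cell, below the plexins, Rras2 and Rnd3 fell in PRKO cells by more log2 units than any family member differed. Of 33 measured plexin effectors, 3 passed as lower and 1 as higher, with a median difference of -0.02 beside -0.02 over all genes, and 2.46% of all genes passed in either direction. Rras2, a GTPase of the R-Ras group that plexins can inactivate, read 9.51, 9.65, 9.52, 9.66 and 9.78 in PRKO pools 1 to 5, against 10.91, 10.84, 10.87, 10.74 and 10.92 in PR+/- pools 1 to 5. The groups were nearly a log2 unit apart at their nearest. Rras2 fell by 1.23 on the log2 scale (SE 0.07), being 2.35-fold lower in PRKO (limma adjusted p = 1.69e-07).

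Rnd3, of the Rnd group of proteins that bind plexins, read 10.04, 9.44, 9.59, 10.04 and 10.18 in PRKO pools 1 to 5, against 11.02, 10.60, 10.78, 10.69 and 10.77 in PR+/- pools 1 to 5. No pool overlapped, and the difference was -0.91 (SE 0.13, limma adjusted p = 0.00120). Farp1, an exchange factor that associates with A-type plexins, read 7.86, 8.02, 7.73, 7.99 and 7.86 in PRKO pools 1 to 5, against 8.29, 8.06, 8.41, 8.20 and 8.29 in PR+/- pools 1 to 5. PRKO pool 2 came within a few hundredths of PR+/- pool 2, and the difference was -0.36 (SE 0.08, limma adjusted p = 0.0320).

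Mical2, an actin-oxidising enzyme of the MICAL group that couples plexins to the cytoskeleton, rose. It read 9.77, 9.72, 9.35, 9.40 and 9.82 in PRKO pools 1 to 5, against 8.72, 9.25, 8.64, 9.12 and 9.25 in PR+/- pools 1 to 5, without overlap. The difference was 0.62 (SE 0.14), or 1.53-fold (limma adjusted p = 0.0277). With the granulosa marker mean as a covariate neither Farp1 (-0.30, adjusted p = 0.0942) nor Mical2 (0.56, 0.0767) passed. The Farp1 call was lost without any 1 of 7 pools (all but PRKO 2 and 4 and PR+/- 2, adjusted p up to 0.0848) and that of Mical2 without PRKO pool 1, 2 or 5 or PR+/- pool 1 or 3 (up to 0.0816).

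Among 18 other receptors and co-receptors, 1 passed, against 2.46% of all genes in either direction, with a median difference of 0.00. Nrcam, a cell adhesion molecule that joins neuropilin complexes in neurons, read 8.48, 7.91, 7.31, 9.03 and 8.00 in PRKO pools 1 to 5, against 9.62, 8.83, 9.53, 9.07 and 9.06 in PR+/- pools 1 to 5. PRKO pool 4 again stood highest in its group, and it alone overlapped the PR+/- pools. Nrcam fell by 1.08 on the log2 scale (SE 0.25), being 2.11-fold lower in PRKO (limma adjusted p = 0.0392). With the granulosa marker mean as a covariate the difference was -0.70 and passed (adjusted p = 0.0142). Without PRKO pool 4 the difference was -1.30 (adjusted p = 0.00418), and the call was lost without any 1 of 8 pools (all but PRKO 4 and PR+/- 2, up to 0.110). Kdr, the vascular endothelial growth factor receptor that partners Nrp1, had a difference of 0.41 (adjusted p = 0.220), Met, which pairs with B-type plexins, -0.34 (0.352), and the Sema4d receptor Cd72, dim in both genotypes, -0.14 (0.443).

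**Figure D4:**
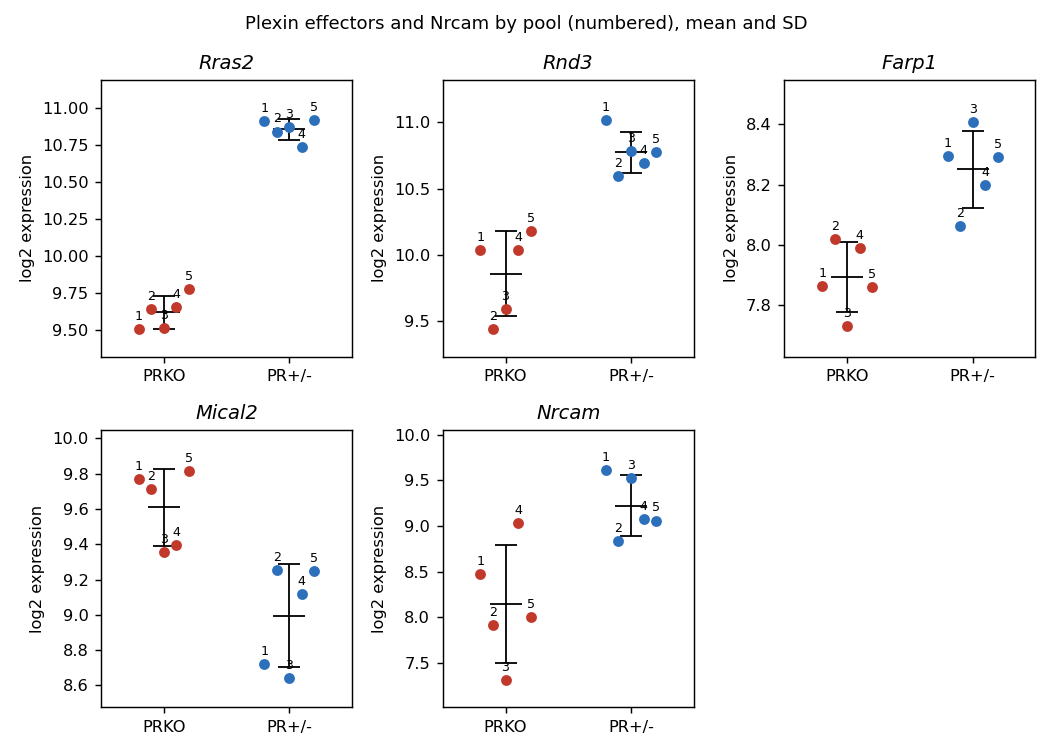
Log2 expression (vertical axes, each with its own range) of the 4 plexin effectors that passed and of Nrcam in the 5 PRKO pools (red, left) and the 5 PR+/- pools (blue, right), numbered by pool, with the mean as a bar and the SD as whiskers. Rras2, Rnd3 and Farp1 are lower and Mical2 higher in every PRKO pool, and in Nrcam PRKO pool 4 (9.03) reaches the PR+/- pools.

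None of the 5 measured vascular endothelial growth factor ligands that share neuropilins passed in limma (1 at an unadjusted p under 0.05, which 13.0% of all genes met). Vegfc had a difference of 0.27, Vegfa 0.15, Vegfb 0.08 and Pgf -0.05. Of 9 proteases and inhibitors that process or shed guidance proteins, Adamts1 and the membrane protease Mmp14 passed as lower (-1.29 and -0.41) and the inhibitor Timp3 as higher (0.52). Over all genes 1.71% passed as lower and 0.752% as higher. The Mmp14 call was lost with the granulosa marker mean as a covariate (-0.37, limma adjusted p = 0.0959) and without any 1 of 7 pools (all but PRKO 2 and 4 and PR+/- 2, adjusted p up to 0.103). The proprotein convertase Pcsk6 had -0.26 (limma adjusted p = 0.367), and the other 5 did not pass either.

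Sema7a, Plxnb1, Sema3b and Sema3f lie on chromosome 9, which also carries Pgr and so the insertion by which the genotypes were selected. Their differences were 0.69, 0.25, 0.15 and 0.03. Plxna3 lies on the X chromosome with Plxnb3, whose difference was -0.19, and Sema4c on chromosome 1 with Plxna2 (0.22) and Nrp2 (0.02).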

How the data were processed

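RNA of 10 granulosa cell pools (5 PRKO, 5 PR+/-, 3 animals each) was labelled for Affymetrix whole-transcript arrays, per the labels' protocols. The authors deposited 1 value per probe set and pool on a log2 scale. The submitters' processing notes name Partek, without a version, and the sources used here do not give the background correction, normalization or summarization. Of 35557 probe sets, 21789 carried 1 gene symbol, and for genes with several probe sets the one with the highest mean was kept, leaving 19938 genes. PRKO was compared with PR+/- using limma 3.58.1 in R 4.3.3 on all genes (linear model, empirical Bayes, no block), and adjusted p are Benjamini-Hochberg over all genes. Arrays have no read depth. The model fit was tested on simulated data.

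The members, gene lists and ligand and receptor pairs were chosen with earlier results of these data known. Pool values are printed for members past the threshold or at an unadjusted p under 0.05, for receptors and ligands paired with a member that passed, and for both neuropilins. In the other lists genes past the threshold are named, or up to 4 with the smallest p. Pak1, Cyp19a1 and Lhcgr had no probe set of that 1 symbol. Figf is an old symbol of Vegfd, which was measured, so the growth factor list holds 5 genes. Settings tried were quantile normalization, median centring, leaving out genes under the 30th percentile of mean level, array weights, a prior with an intensity trend or made robust, a replicate block, other choices of probe set, an adjusted p under 0.01, a fold of at least 1.5, exact permutation, leaving out each pool, and 2 covariates added after the values were seen.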

Additional observations from a re-analysis of the deposited data

Results flagged for a closer look

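Within groups of 5 pools, a pool was marked where its gap to the nearest other pool exceeded 0.71 of the group's range (Dixon's test at the 95% level). This occurred in 6 of the 78 groups checked, and chance marks about 1 group in 20. Among PRKO pools these were Plxnb2 in pool 2 (10.2), Sema3b in pool 3 (7.77) and Sema4f in pool 5 (6.95). Among PR+/- pools they were Sema5a in pool 2 (11.0), Plxnb3 in pool 3 (5.88) and Sema4g in pool 3 (6.06), each the highest of its group. None of these 6 genes passed the test between genotypes.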

How the results depend on the processing

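Sema7a and Plxna3 passed as higher, and Rras2 and Rnd3 as lower, under all settings run at an adjusted p under 0.05, each pool left out included, except that Plxna3 falls short of a fold of 1.5. With each pool left out, 2 to 3 members were higher and 0 to 1 lower (Nrp1 without PRKO pool 4), 360 to 488 of all genes passed, and the lists gave 0 to 1 calls for co-receptors, 2 to 5 for effectors, 0 for the growth factor ligands and 2 to 3 for the proteases. The median difference was then 0.10 to 0.17 over members, 0.10 to 0.18 over semaphorins and 0.06 to 0.14 over plexins and neuropilins. At an adjusted p under 0.01 there were 258 genes in all, 2 effectors, 1 protease and 0 co-receptors. With a fold of at least 1.5 there were 220 genes in all, 1 member higher (Sema7a), 3 effectors, 1 co-receptor (Nrcam) and 1 protease (Adamts1). With the endothelial mean as a covariate 1 member was lower (Nrp1), and with either covariate 1 growth factor ligand (Vegfc) passed. With the granulosa mean Sema4c, Farp1, Mical2 and Mmp14 lost their calls. The cause was not tested where a stricter threshold or a smaller sample does not show it. The deviations of pools sharing a number had correlations of 0.17, 0.22, 0.32, -0.10 and -0.05 for numbers 1 to 5. For PRKO pools 1 to 3, but not 4 and 5, the same-numbered PR+/- pool gave the highest correlation. These values cannot decide whether the number pairs samples. With the replicate block 2 members that passed before, Sema7a (0.69) and Plxna3 (0.36), passed again, Sema4c (0.34, adjusted p = 0.0675) did not, and Sema3d (0.71, 0.0206) did. Of the effectors Farp1 lost its call with the block (0.0858). The sign changed in some setting for 10 members that had not passed. By exact permutation the unadjusted p of Nrp1, Sema3a and Sema6a was 0.103, 0.0952 and 0.0635, above the threshold that limma's unadjusted p met, and that of Sema3b was 0.0238, below the threshold that limma's unadjusted p (0.0655) missed. Dim signal limits Plxnb3 and Sema4g.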
